A study of Mus musculus with 10 samples.

Results

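Among mouse trophoblast stem cells (TSCs) left to differentiate, a group of 57 wells was picked by its counts of Serpinb9e, Serpinb9g, Hsd11b2 and Gjb2. The wells came from 1 plate of 384 wells, each meant to hold 1 sorted cell, and were read with CEL-Seq2, which counts transcripts near their 3′ ends with molecular identifiers (UMIs). A well was selected when it held at least 2000 UMIs outside mitochondrial genes, at least 2 UMIs summed over the 4 genes and fewer than 5 UMIs of Vnn1. This gave 57 of 318 kept wells of the plate (17.9%), out of 1192 kept wells in the whole series. The 261 other kept wells of the plate are the comparison, and 215 of them also had fewer than 5 UMIs of Vnn1. Since these measured values chose the wells, everything set against the other wells of this plate is a description of 1 library, with no test. Intervals (95%) cover counting error only, and wells of 1 library are not replicates.

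The differentiated library was made from F4 TSCs cultured for 6 days without Fgf4, Tgfb and heparin. It is set beside single-cell libraries, 1 each, of pTSCs of line pTS1 isolated from blastoids (blastocyst-like structures grown from stem cells), of newly derived pTSCs kept in LT21 medium and of F4 TSCs kept in Tx medium, the undifferentiated counterpart of the same line. All 4 carry a randomly integrated GFP cassette on a C57BL/6J background. Bulk RNA of TSCs sorted by an eGFP knocked in at CDX2 formed 3 CDX2-high and 3 CDX2-low libraries, on the same background.

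TSCs are the cultured form of the trophectoderm and its polar derivative. Fgf4 and TGF-beta family signals keep them dividing, and without these signals they leave the cell cycle and take up placental fates such as giant cells, spongiotrophoblast and the syncytiotrophoblast of the labyrinth. The genes of the rule have known placental roles. Serpinb9e and Serpinb9g belong to a mouse cluster of copies related to Serpinb9, an inhibitor of granzyme B. Hsd11b2 inactivates glucocorticoids, and Gjb2 encodes connexin 26, a gap junction protein of the mouse labyrinth. Vnn1, whose limit keeps another group of wells out, encodes a pantetheinase.

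Promoters of the cluster are shown because they let the reader see how alike the copies are whose counts made the rule. In RefSeq (GRCm38.p6) the 6 annotated copies from Serpinb9b to Serpinb9g lie on chromosome 13. The 250 bases before the start site are given 5′ to 3′ for the 2 serpins of the rule and for the copies most like Serpinb9e, with capitals for the letters TGACGT of a CREB/ATF site, which were chosen after the sequences had been seen.
Serpinb9e (chr13:33249358-33249607, plus strand): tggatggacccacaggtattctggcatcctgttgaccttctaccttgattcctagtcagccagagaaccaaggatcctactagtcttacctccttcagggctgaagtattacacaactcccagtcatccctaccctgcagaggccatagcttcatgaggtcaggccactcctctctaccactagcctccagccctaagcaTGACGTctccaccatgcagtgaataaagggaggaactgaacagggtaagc
Serpinb9f (chr13:33323827-33324076, plus strand): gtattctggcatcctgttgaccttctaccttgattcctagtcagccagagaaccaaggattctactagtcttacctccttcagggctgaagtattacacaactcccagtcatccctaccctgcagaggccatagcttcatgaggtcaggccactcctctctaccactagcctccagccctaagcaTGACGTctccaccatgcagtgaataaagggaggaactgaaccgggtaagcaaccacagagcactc
Serpinb9g (chr13:33484540-33484789, plus strand): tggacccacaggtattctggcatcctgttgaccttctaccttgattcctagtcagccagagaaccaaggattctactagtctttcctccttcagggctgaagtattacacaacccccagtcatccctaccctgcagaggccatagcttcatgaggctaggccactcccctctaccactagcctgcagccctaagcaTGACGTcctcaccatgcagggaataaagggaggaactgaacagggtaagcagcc
Serpinb9d (chr13:33192705-33192954, plus strand): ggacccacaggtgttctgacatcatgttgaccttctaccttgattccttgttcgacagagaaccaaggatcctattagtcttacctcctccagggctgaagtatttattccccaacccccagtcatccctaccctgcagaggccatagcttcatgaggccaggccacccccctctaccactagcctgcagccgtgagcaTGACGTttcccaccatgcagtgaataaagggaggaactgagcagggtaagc
Over aligned bases Serpinb9e and Serpinb9f were 99.1% identical in these windows, Serpinb9e and Serpinb9g 95.9%, and Serpinb9d and Serpinb9e 91.8%. Serpinb9b and Serpinb9e reached 54.6%. In the last 300 bases of the transcripts (GENCODE M21), where CEL-Seq2 reads fall, Serpinb9e and Serpinb9f were 98.3% identical, Serpinb9e and Serpinb9g 93.2%, and Serpinb9d and Serpinb9e 57.1%. Counts of Serpinb9e, Serpinb9f and Serpinb9g may therefore be split or exchanged between copies, and they are uncertain.

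The letters TGACGT, searched on both strands, stood in 5 of the 6 Serpinb9 promoters, all but Serpinb9b, and in 6.56% of 27025 mouse promoters of the same length. Near-identical copies count here as separate promoters. Among the 15 genes that stood highest in selected wells, 12 had a promoter in the table (Plat, 4932442L08Rik and Caskin1 did not), and 3 of the 12 held the letters, namely Rgs2, Cds1 and Serpinb9c. AP-1 letters (TGANTCA) were in 6.87% of all promoters, GATA letters (AGATAA) in 10.3%, C/EBP letters (TTGCNNAA) in 9.55% and homeobox letters (TAATTA) in 4.90%. None of these 4 was found in the 12 or in the serpins. AP-2 letters (GCCNNNGGC, 13.6% of all) were in 4 of the 12, and TEAD letters (GGAATG, 12.6% of all) in Serpinb9c. None of the other 6 sets of letters was in the 4 windows shown, so no other match overlaps TGACGT there. These are matches of letters in a window, and no binding was measured.

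The summed count of the 4 genes in selected wells ran to 110 UMIs with a median of 9 and a lowest value of 2. At the edge of the rule, 13 selected wells had exactly 2 UMIs and 5 had 3, while 39 wells just outside had exactly 1 and 176 had 0. At the other edge, 4 selected wells had 4 Vnn1 UMIs and 7 had 3, and 33 had none. Of wells that met the sum, 3 were kept out by exactly 5 Vnn1 UMIs and 1 by exactly 6. Serpinb9e was seen in 46 selected wells, Gjb2 in 37, Serpinb9g in 29 and Hsd11b2 in 19. Serpinb9g came with Serpinb9e in 28 of its 29 wells. The sum was also met in 22 of the 46 wells with 5 or more Vnn1 UMIs (47.8%), against 21% of wells under that limit.

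**Figure D1:**
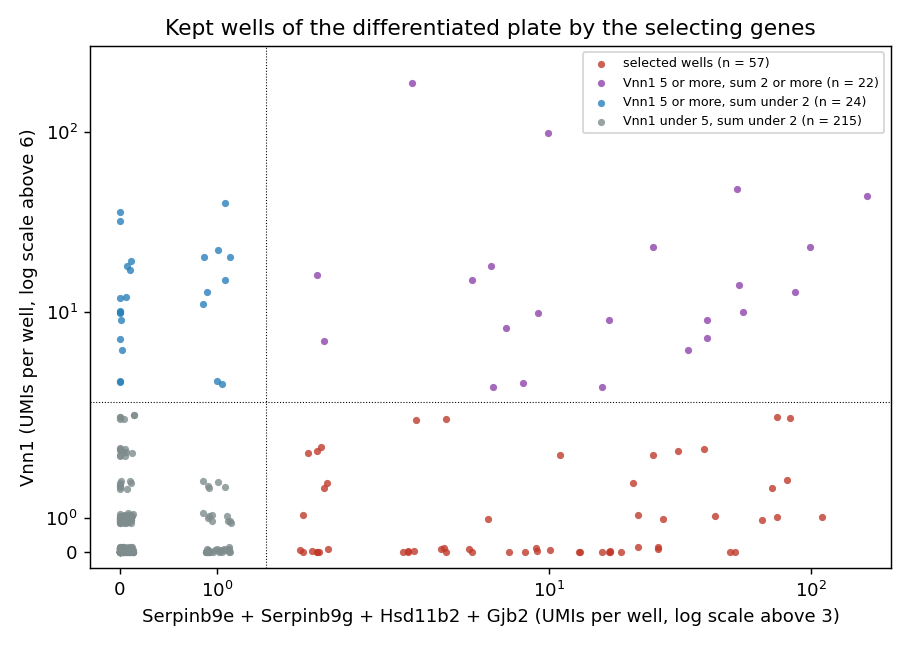
Each point is a kept well of the differentiated plate, with the summed UMIs of Serpinb9e, Serpinb9g, Hsd11b2 and Gjb2 on the x axis and Vnn1 UMIs on the y axis (both on a log scale above a linear start, with small random shifts). Dotted lines mark the rule: the 57 selected wells lie in the lower right field, below 22 wells that met the sum but had 5 or more Vnn1 UMIs.

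Depth was similar. Selected wells held a median of 7704 UMIs (2244 to 25169) and other wells 8538 (2006 to 45613). The median share of mitochondrial UMIs, taken of all UMIs, was 22.7% in selected wells and 22.4% in other wells. Of the 6 markers that go with the label, 3 were not used by the rule. Lonrf3, Ctsr and Tgm2 were all more than 5-fold higher in selected wells (ratios 17.1, 15.4 and 5.49). The markers were chosen with earlier results of these data known, so their direction describes the label and does not test it.

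Keratins of simple epithelia were found throughout. Krt8 and Krt18, which pair in simple epithelia, were each found in 57 of 57 selected wells (in 252 and 256 of 261 other wells), with 2849 CPM in selected wells against 2098 CPM in other wells for Krt8 and 2605 against 2327 CPM for Krt18. CPM here is the UMIs of a gene summed over a group of wells and scaled to a total of 1000000 without mitochondrial genes. The 19 listed epithelial junction and keratin genes summed to 9019 CPM in selected wells against 9128 CPM in other wells. Of the 15 measured, 1 was at least 2-fold higher (Krt19) and 0 lower, where 6.7% and 13.3% of all measured genes were. The median log2 ratio was -0.34, against -0.06 over all measured genes. E-cadherin, Cdh1, had 796 CPM in selected wells against 1044 CPM in other wells. Markers of further cell types were at or near 0. All 4 primitive endoderm markers (Gata4, Gata6, Sox17, Pdgfra) were at 0 in selected wells, and so were the epiblast markers Pou5f1 and Nanog and the fibroblast markers Col1a2, Col3a1, Dcn and Postn. The 5 fibroblast markers together made 3.67 CPM in selected wells against 10.3 CPM in other wells, and the 4 endothelial and blood markers 1.83 against 2.95 CPM.

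Of markers of mature placental types, many were at 0. The giant cell prolactins Prl3d1, Prl3b1 and Prl2c2 and the cathepsin Ctsq had no UMI, which over 545061 UMIs is a limit of 3 counts each. The 6 giant cell markers together had 70 UMIs in selected wells (128 CPM) against 4 UMIs in other wells (1.48 CPM), of which Ctsj made 69 in selected wells, 61 of them in 1 well, and Hand1 made 1. Spongiotrophoblast markers Ascl2, Prl8a8 and Prl3a1 and the syncytin Synb of syncytiotrophoblast layer II were also at 0. The 5 spongiotrophoblast markers had 2 UMIs in selected wells (1 each of Tpbpa and Tpbpb) and 0 in other wells, the 4 glycogen trophoblast markers 5 against 106 UMIs, and the 3 markers of layer II 4 against 35 UMIs. The 26 listed prolactin family genes summed to 22 UMIs in selected wells (40.4 CPM against 6.64 CPM in other wells), and none reached the count needed to be measured. The 4 markers of syncytiotrophoblast layer I summed to 459 CPM in selected wells against 890 CPM in other wells, with Stra6 and Glis1 at 0 in selected wells. No mature placental type is therefore named for these wells.

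Kitl, Cxcr4, Plat, Slc16a1 and Gm2a were among the genes that stood highest over the other wells, and the proteins of that set have varied roles. Genes with at least 20 UMIs over the kept wells, other than the 5 of the rule, were measured, and 514 of 7668 (6.7%) were at least 2-fold higher in selected wells while 1022 (13.3%) were at least 2-fold lower. Against the 215 other wells with Vnn1 under 5 the numbers were 580 (8.08%) higher and 1025 (14.3%) lower of 7179. These shares include many genes with few UMIs, and nothing is read from them. The 15 genes with the highest lower bound of the ratio, after genes carried by 1 well were left out, are described in turn by role. They were chosen by this same difference, so their direction is fixed by the choice.

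Signalling genes formed the first set. Kitl, the ligand of the receptor Kit, ran per well between 0 and 3045 CPM with a median of 165 in selected wells and between 0 and 2259 CPM with a median of 0 in other wells. Summed, this was 396 CPM in selected wells against 51.7 CPM in other wells, a ratio of 7.67 (6.17 to 9.56), with a UMI in 34 of 57 against 45 of 261 wells. The ranges overlapped, and most of the other wells had none. Cxcr4, the receptor for the chemokine Cxcl12, had 106 CPM in selected wells against 10.3 CPM in other wells (ratio 10.3, 6.45 to 16.8). Its UMIs were in 18 of 57 selected wells, so even there it was seen in a minority. Rgs2, which shortens signals of G protein-coupled receptors, had 89.9 CPM in selected wells against 4.43 CPM in other wells (ratio 20.3, 10.6 to 41.9). Rassf4, a protein with a Ras association domain, had 141 CPM in selected wells against 9.60 CPM in other wells (ratio 14.7, 9.33 to 23.9). Ppp2r3a, a regulatory subunit of the phosphatase PP2A, had a ratio of 6.86, and Caskin1, a scaffold protein that binds Cask, of 7.12.

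Proteases and their inhibitors formed the second set. Plat, the tissue-type plasminogen activator, had 93.6 CPM in selected wells against 4.06 CPM in other wells, a ratio of 23 (11.9 to 49). Its 51 UMIs came from 11 selected wells. The highest selected well had 955 CPM and the highest other well 149 CPM, with medians of 0 in both groups. Serpinb9c, a copy with a promoter 71.4% identical to that of Serpinb9e, had 56.9 CPM in selected wells against 7.01 CPM in other wells (ratio 8.11, 4.44 to 15.2). Of the other clade B serpins, 4 were measured: Serpinb9c, Serpinb9d (174 CPM in selected wells against 29.5 in other wells, ratio 5.90), Serpinb9f (17 UMIs in selected wells, ratio 7.04) and Serpinb9b (448 against 237 CPM, ratio 1.89). In that list 3 of 4 were at least 2-fold higher, where 6.7% of all measured genes were. The median log2 ratio was 2.69 against -0.06 over all measured genes. Given the identity of the transcript ends, the value of Serpinb9f is not independent of the rule. Given that of the whole transcripts, the value of Serpinb9d may not be either.

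The rodent placental cathepsins are a family of lysosomal proteases next to one another in the genome. Ctsr had 59 UMIs in 15 selected wells and 19 UMIs in 5 other wells, which is 108 CPM in selected wells against 7.01 CPM in other wells (ratio 15.4, 9.07 to 27.4). A single selected well held 33.9% of its UMIs, which kept it out of the 15 genes. Against the other wells with Vnn1 under 5 the ratio of Ctsr was 112, so its UMIs in other wells lay mostly in Vnn1-rich wells. Ctsj had 69 UMIs in 2 selected wells, 88.4% of them in 1 well, and 2 UMIs in other wells. Its level therefore describes 1 cell rather than the group.

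Transporters and enzymes formed the third set. Slc16a1, the lactate and monocarboxylate carrier MCT1, ran per well between 0 and 5766 CPM with a median of 749 in selected wells and between 0 and 3574 CPM with a median of 0 in other wells. Summed, it had 864 CPM in selected wells against 146 CPM in other wells (ratio 5.91, 5.16 to 6.77), with a UMI in 46 of 57 against 115 of 261 wells. Slc41a2, a magnesium transporter, had 75.2 CPM in selected wells against 4.80 CPM in other wells (ratio 15.7). Gm2a, a lysosomal protein that presents the ganglioside GM2 to its hydrolase, had 1016 CPM in selected wells against 179 CPM in other wells (ratio 5.68, 5.02 to 6.43). Cds1, which makes CDP-diacylglycerol for phosphoinositide synthesis, had 433 CPM in selected wells against 76.4 CPM in other wells (ratio 5.67, 4.68 to 6.86). Tgm2, the protein crosslinking transglutaminase, had 486 CPM in selected wells against 88.6 CPM in other wells (ratio 5.49, 4.59 to 6.56), with a UMI in 38 of 57 against 49 of 261 wells, and 1 selected well held 34.3% of its UMIs. Against the other wells with Vnn1 under 5 its ratio was 11.8. Vnn1-rich wells also held Tgm2, up to 4616 CPM in 1 well that met the sum, so it is not particular to the selected wells.

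The last of the 15 were X-linked or little described. Zfp36l3, an X-linked RNA-binding protein of the tristetraprolin family known from the rodent placenta, had 657 CPM in selected wells against 123 CPM in other wells (ratio 5.33, 4.58 to 6.20). It was found in 43 of 57 selected wells against 74 of 261 other wells. Lonrf3, a RING finger protein, had 171 CPM in selected wells against 9.96 CPM in other wells (ratio 17.1, 11.1 to 27.3), and 4932442L08Rik 448 against 74.2 CPM (ratio 6.03). These 3 lie on the X chromosome. Of all genes at least 2-fold higher in selected wells 36 of 514 (7%) were X-linked, against 243 of 7668 measured genes (3.17%). Xist had no UMI in selected wells and 14 in other wells, and 5 Y-linked genes summed to 89.9 CPM in selected wells against 65.3 CPM in other wells.

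Several of the 15 genes were seen in the same wells. A selected well held a UMI of 7 of the 15 genes at the median (0 to 14), and another well of 2 (0 to 13). At least 5 of the 15 were seen in 40 of 57 selected wells (70.2%) and in 36 of 261 other wells (13.8%). A higher number per selected well follows from how the 15 were chosen. Whether the genes were seen together more often than separate detection would give was not tested. After each well was thinned to 2000 UMIs the medians were 4 in selected wells and 1 in other wells. The overlap was in part with the Vnn1-rich wells that met the sum, where the median was 6.

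**Figure D2:**
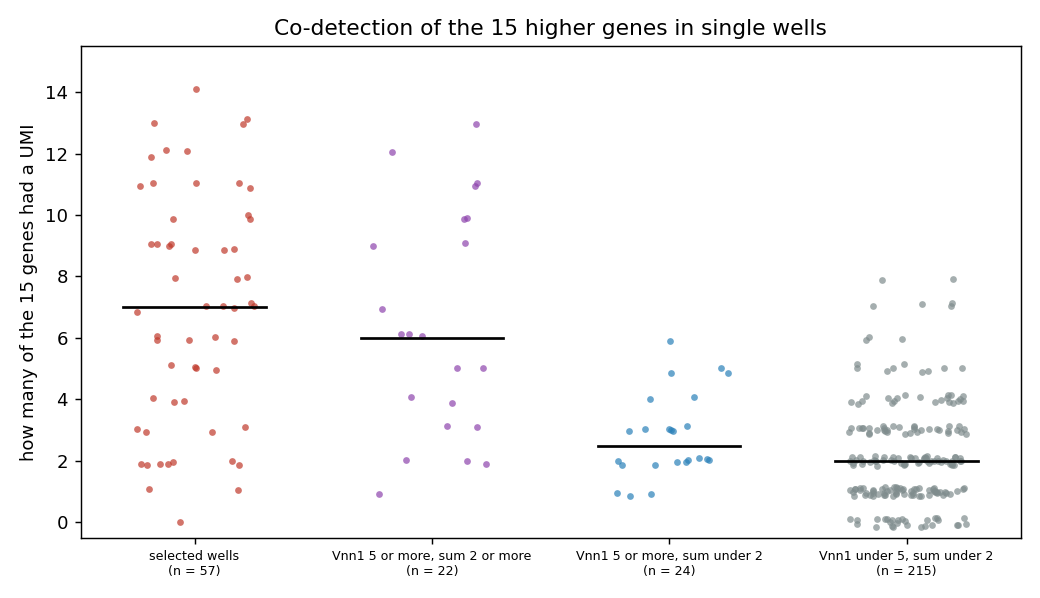
Number of the 15 higher genes with at least 1 UMI in each well (points, with small random shifts) in 4 groups of wells, with the median as a black line. Medians are 7 in selected wells, 6 in Vnn1-rich wells that met the sum, 2.5 in Vnn1-rich wells that did not and 2 in the rest.

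Among the genes that were lower in selected wells, Mki67, Cenpf and Eomes mark division or the stem cell state. Mki67, which coats mitotic chromosomes, had 53.2 CPM in selected wells against 357 CPM in other wells (ratio 0.15, 0.10 to 0.22). It was seen in 12 of 57 selected wells against 162 of 261 other wells. Cenpf, a kinetochore protein, had 75.2 CPM in selected wells against 465 CPM in other wells (ratio 0.16). Eomes, a T-box factor that TSCs need, had 16.5 CPM in selected wells against 140 CPM in other wells (ratio 0.12, 0.05 to 0.23). Eomes was seen in 7 of 57 selected wells and 96 of 261 other wells, so it was also missing from most of the other wells.

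Further lower genes encoded contact signals and redox enzymes. The ephrin ligands Efna3 and Efnb2 had 34.9 and 14.7 CPM in selected wells against 239 and 114 CPM in other wells (ratios 0.15 and 0.13). Cyr61, a secreted matrix protein and target of YAP, had 77.1 CPM in selected wells against 427 CPM in other wells (ratio 0.18). The kinase Hunk had a ratio of 0.12 and Rgs5, a regulator of G protein signalling like Rgs2, 1 UMI in selected wells against 128 in other wells. Among redox enzymes, the glutathione peroxidase Gpx3 had 20.2 CPM in selected wells against 193 CPM in other wells (ratio 0.10, 0.05 to 0.19), and the glutathione transferase Gsto1 308 against 1381 CPM (ratio 0.22). At least 5 of these 10 genes were seen in 8.77% of selected wells and in 61.3% of other wells, a contrast that follows from their choice.

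Gene lists showed the same contrast more widely, each beside a median log2 ratio of -0.06 over all measured genes. Of all measured genes 6.7% were at least 2-fold higher and 13.3% lower. Of 15 measured G2 and M phase genes, 14 were at least 2-fold lower in selected wells and 0 higher, with a median log2 ratio of -2.00. Top2a, which untangles sister chromatids, had 161 CPM in selected wells against 722 CPM in other wells, and Ube2c, which acts in mitotic exit, 128 against 539 CPM. Kif20b, with a ratio of 0.90, was the 1 member not past 2-fold. Of 12 S phase genes, 6 were lower and 0 higher (median -0.93), among them the helicase subunit Mcm5 (ratio 0.21) and the ribonucleotide reductase subunit Rrm2 (ratio 0.21). The p53 target and cell cycle arrest list had 1 of 11 lower and 0 higher, which is not above the shares of all measured genes. The arrest gene Cdkn1a had 317 CPM in selected wells against 428 CPM in other wells (ratio 0.74).

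Stem cell and signalling lists went the same way, beside 6.7% higher and 13.3% lower of all measured genes. Of 14 TSC regulators 9 were lower and 0 higher (median -1.22), including Sox2 (99.1 CPM in selected wells against 337 in other wells, with 61.1% of the selected wells' UMIs in 1 well), Id2 (ratio 0.27) and Tead4 (ratio 0.44). Gata3, a trophectoderm factor kept in differentiated trophoblast, was not among them, with 374 CPM in selected wells against 341 CPM in other wells. Of 9 polar trophectoderm genes 6 were lower (median -2.05), with Nat8l at 1 UMI in selected wells against 110 in other wells. FGF and ERK targets had 6 of 10 lower and 0 higher (median -1.50). The feedback inhibitor Spry4 had 3.67 CPM in selected wells against 35.1 CPM in other wells, and the ERK phosphatase Dusp6 9.17 against 65 CPM. TGF-beta and BMP targets had 5 of 9 lower (median -1.06), with Nodal at a ratio of 0.14, and 1 higher, Id3, at 4.05. Cyclin gene Ccnd1, another ERK target, had a ratio of 0.72 with an interval of 0.28 to 1.61 and cannot be placed.

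Differentiation lists held both higher and lower genes, beside 6.7% higher and 13.3% lower of all measured genes. In lists this short, a count of 1 or 2 genes says little about the list. Mural trophectoderm genes had 4 of 17 higher and 2 lower (median 0.28). The higher ones were Krt19 (112 CPM in selected wells against 35.4 in other wells), Ndrg1 (532 against 177), Aqp3, a water and glycerol channel (49.5 against 10.3), and Itga5. The ectoplacental cone and spongiotrophoblast list had 1 of 8 higher, Nrk, an X-linked kinase of the spongiotrophoblast, at 4119 CPM in selected wells against 993 CPM in other wells (ratio 4.15, 3.92 to 4.39), and 1 lower, Car2 (ratio 0.46). Giant cell genes had 2 of 8 higher, Hbegf (ratio 3.40) and Ctsj, and 2 lower, of which Bhlhe40 had a ratio of 0.33. Labyrinth and syncytiotrophoblast I genes had 2 of 8 higher, Slc16a1 and the homeobox gene Dlx3 (136 CPM in selected wells against 42.4 CPM in other wells), and 0 lower, but a median of -0.49. Syncytiotrophoblast II genes had 1 of 6 higher, the iron exporter Slc40a1 (ratio 2.17), and 2 lower, with Gcm1 at 2 UMIs in selected wells.

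Imprinted and metabolic lists had few members past 2-fold, and the shares of the lipid and cholesterol lists were near the 6.7% higher and 13.3% lower of all measured genes. Of 8 imprinted placental genes 2 were higher, Peg3 (3790.4 CPM in selected wells against 1539 in other wells, ratio 2.46) and the zinc finger gene Plagl1 (ratio 9.67, 6.38 to 14.9, with 35.7% of its selected UMIs in 1 well), and 1, H19, was lower on 2 UMIs in selected wells. Of 3 measured genes of steroid metabolism besides Hsd11b2, Hsd17b2 was higher (ratio 6.33 on 14 UMIs in selected wells). Of 3 measured connexin genes besides Gjb2, none was higher and Gja1 was lower (18.3 CPM in selected wells against 70.1 CPM in other wells). Lipid genes had 1 of 10 higher, lipoprotein lipase Lpl (117 against 18.5 CPM, ratio 6.36). Cholesterol synthesis genes had 2 of 13 lower and 0 higher (median -0.72), a share near that of all genes, and glycolysis and hypoxia genes 4 of 13 lower and 1 higher (median -0.66). Immediate early and heat shock genes, which can rise during cell handling, had 1 of 12 lower and 0 higher (median -0.05).

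**Figure D3:**
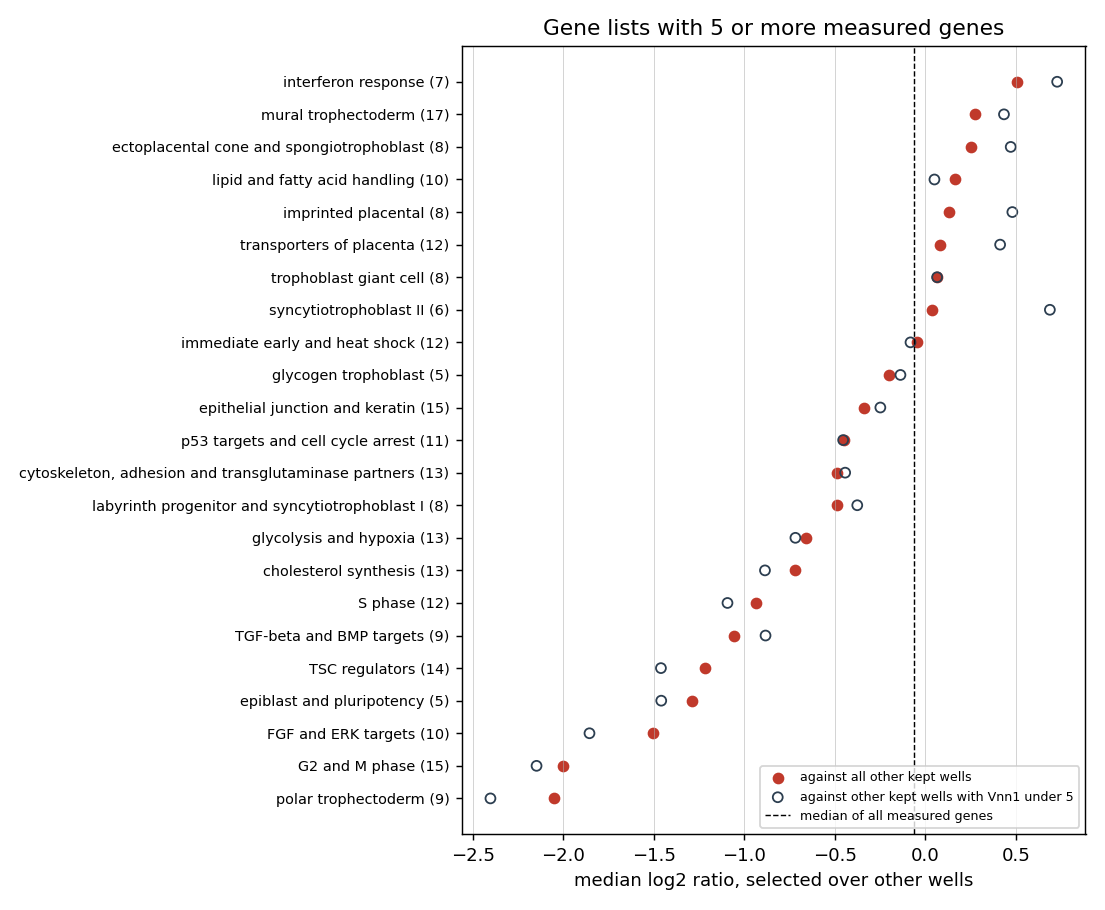
Median log2 ratio, selected over other wells, of each gene list with at least 5 measured genes (number in brackets), against all other kept wells (filled) and against those with fewer than 5 Vnn1 UMIs (open), with the median of all measured genes as a dashed line at -0.06. Division, polar and FGF lists lie farthest to the left, with G2 and M phase at -2.00 against all other wells.

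The selected wells were not alike. In the split that follows, a serpin means Serpinb9e or Serpinb9g, the serpins of the rule, and no other serpin. In 32 wells a serpin came with Hsd11b2 or Gjb2, 15 wells had a serpin without those genes, and 10 had Hsd11b2 or Gjb2 without a serpin. Of these 10, 9 had Gjb2 and 1 had Hsd11b2. Against the other wells of the plate, all 15 genes were at least 2-fold higher in the 32 wells (median ratio 9.78), where 7.91% of all measured genes were. In the 15 serpin wells it was 11 of 15 (median ratio 4.87), against 10.3% of all measured genes. In the 10 wells without a serpin 1 of 15, Rgs2 on 1 UMI, was at least 2-fold higher, and 11 were at least 2-fold lower (median ratio 0.40), against 8.29% and 23% of all measured genes. These 10 wells held 98656 UMIs in all, so genes at a few CPM in other wells sit near the floor here. For those genes a call as lower says little, and the median ratio shares this limit. The wells with a serpin dominate the 57, so this split partly restates how the 15 genes were chosen. The kinds also differed in the sum itself: 5 of the 10 serpin-free wells and 7 of the 15 wells with a serpin alone had a sum of 2 or 3, against 6 of the 32 wells with both. Kind of gene and size of the sum were not separated here.

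Levels in the 3 kinds of wells show this directly. Kitl had 628 CPM in wells with both kinds of genes, 69.5 CPM in wells with a serpin alone and 0 CPM in wells without a serpin, against 31.5 CPM in other wells with Vnn1 under 5. Gm2a had 1533, 339 and 71 CPM in the same order, against 128 CPM in those other wells. Zfp36l3 had 779, 799.7 and 81.1 CPM, against 78.4 CPM. The serpin-free wells thus sat near or below the other wells for these 3 genes. Their depth was similar, with a median of 8712 UMIs against 9551 in wells with both kinds and 6056 in wells with a serpin alone, and 98656 UMIs in all.

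The 10 lower genes were low in each of the 3 kinds of wells. They were chosen as low over all selected wells, so low values in parts of those wells partly restate the choice. All 10 were at least 2-fold lower than in other wells in each of the 3 kinds of wells, with a median ratio of 0.17 with both kinds, 0.11 with a serpin alone and 0.05 without a serpin. Of all measured genes 17%, 25.4% and 23% were at least 2-fold lower in the same comparisons. Cenpf, for example, had 78.5, 122 and 10.1 CPM in that order, against 496 CPM in other wells with Vnn1 under 5. The same held at the edge of the sum: in the 18 wells with a sum of 2 or 3, all 10 lower genes were at least 2-fold lower (13.8% of all measured genes) and 4 of the 15 higher genes at least 2-fold higher (6.4%). In the 39 wells with 4 or more, the numbers were 10 (20.6%) and 15 (8.66%).

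Some genes led in the 10 wells without a serpin of the rule, and they were chosen after their values were seen. Flt1, the VEGF receptor of spongiotrophoblast and giant cells, had 1571 CPM in the 10 wells, 626 CPM in wells with a serpin alone and 145 CPM in wells with both kinds, against 417 CPM in other wells with Vnn1 under 5. The kinase Pim1 had 1003, 591 and 495 CPM in that order, against 226 CPM. The iodide carrier Slc5a5 had 466, 304 and 166 CPM, against 98.3 CPM. Serpinb9b, a serpin outside the rule, had 588, 322 and 450 CPM, against 161 CPM. The 10 wells thus lacked Serpinb9e and Serpinb9g but not every serpin. In Vnn1-rich wells Serpinb9b had 601 CPM where the sum was met and 393 CPM where it was not. Flt1, Pim1 and Slc5a5 were also above those other wells in Vnn1-rich wells, with 989, 694 and 414 CPM where the sum was met and 1051, 827 and 248 CPM where it was not. With 10 wells and up to 45.7% of a gene's UMIs in 1 well, these levels rest on few cells.

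**Figure D4:**
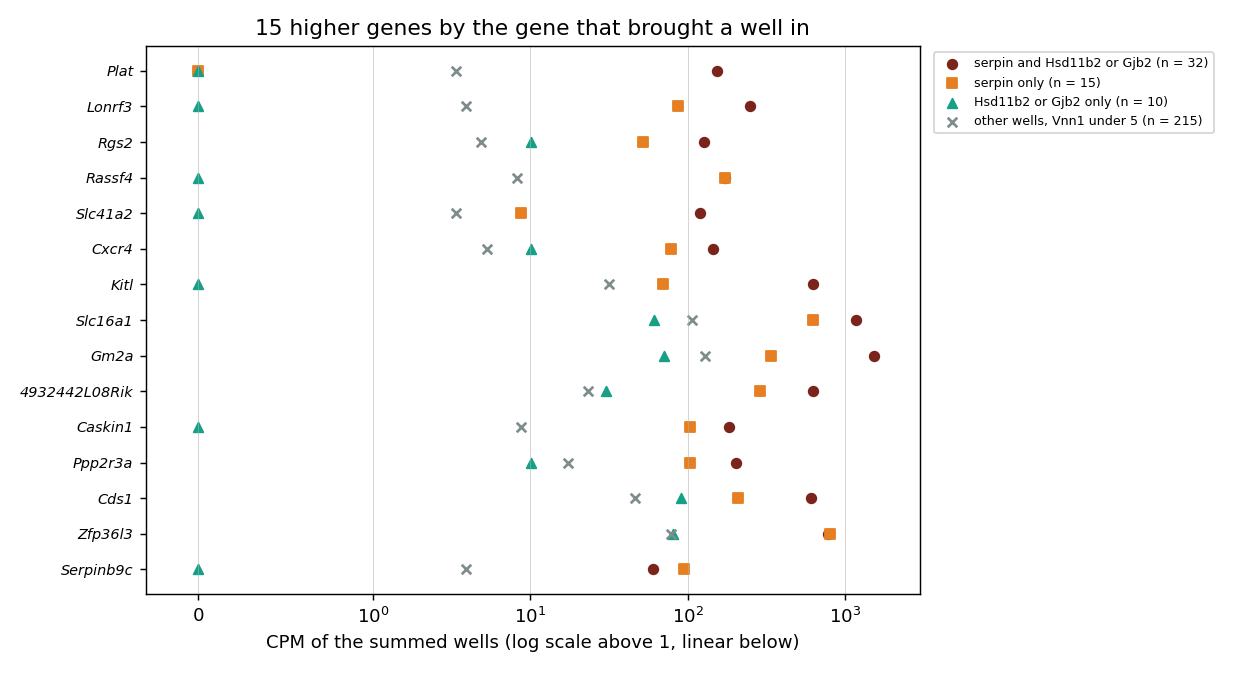
CPM of summed wells (x axis, log scale above 1) of the 15 higher genes in selected wells with a serpin and Hsd11b2 or Gjb2 (circles), with a serpin alone (squares) and with Hsd11b2 or Gjb2 alone (triangles), beside other wells with Vnn1 under 5 (crosses). Circles lie right of the crosses for all 15 genes, and triangles lie near or left of them for most. A serpin here is Serpinb9e or Serpinb9g.

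The 15 genes were also high in some wells above the Vnn1 limit. In the 22 Vnn1-rich wells that met the sum, which counted as other wells when the 15 genes were chosen, 14 of 15 were at least 2-fold higher than in other wells with Vnn1 under 5, with a median ratio of 6.46 (8.76% of all measured genes). All 10 lower genes were at least 2-fold lower there (20.1% of all). In the 24 Vnn1-rich wells that did not meet the sum, 0 of 15 were at least 2-fold higher (3.98% of all measured genes) and 7 of 15 were at least 2-fold lower (10.6% of all), with a median ratio of 0.51 and Plat, Lonrf3, Rgs2 and Slc41a2 at 0 CPM. These 24 wells held 366247 UMIs in all, so a 0 is a weak limit for genes at a few CPM. Of the 10 lower genes 6 were at least 2-fold lower there.

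Set against all 46 Vnn1-rich wells, 276 of 5502 genes (5.02%) were at least 2-fold higher in selected wells and 257 (4.67%) lower. Of the 15 genes, 14 were at least 2-fold higher in selected wells, with the largest ratios for Rgs2 (29, 7.60 to 246), Plat (15.1, 5.54 to 57.4) and Rassf4 (10.1, 5.06 to 23). Against the 22 Vnn1-rich wells that met the sum, 6 of 15 were at least 2-fold higher (6.66% of all measured genes) and 0 lower (3.53%). Rgs2 had 89.9 CPM in selected wells against 7.19 CPM in those 22, and Plat 93.6 against 14.4 CPM, whereas 4932442L08Rik had 448 against 532 CPM. Of the 10 lower genes, 6 were at least 2-fold lower and 1 higher in selected wells against all 46 Vnn1-rich wells. Against the 22 that met the sum, 0 of the 10 were lower and 3 were at least 2-fold higher, with a median ratio of 1.64. The 10 genes were thus not lower in selected wells than in those 22. Eomes was at 16.5 CPM in selected wells against 3.60 CPM in the 22 wells, on 1 UMI there.

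The other libraries give wells that the choice of genes did not use. In the TSC library 14 of 318 kept wells (4.40%) met the gene rule, in the blastoid library 9 of 257 (3.50%) and in the pTSC library 2 of 299 (0.669%). The number in the TSC library allowed a comparison inside it. Its rule wells were deeper, with a median of 23246 UMIs against 15091 over all kept wells. Gjb2 was seen in at least 13 wells of that library and Serpinb9e in at least 7.

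Of the genes named from the differentiated plate, 18 could be measured in the TSC library. There, 769 of 8793 genes (8.75%) were at least 2-fold higher in rule wells and 1582 (18%) lower. Of the 15 higher genes 9 were measured and 8 were at least 2-fold higher, with a median log2 ratio of 1.90 against -0.05 over all measured genes. 4932442L08Rik had 165 CPM in rule wells against 4.94 CPM in other wells (ratio 33.4, 20.4 to 56), Zfp36l3 223 against 10.7 CPM (ratio 20.9) and Caskin1 61.1 against 3.95 CPM. Slc16a1 was the exception, with 624 against 316 CPM (ratio 1.98, 1.70 to 2.29). Lonrf3 had 18 UMIs in 6 of the 14 rule wells and none in the other 304 wells, too few to be counted as measured.

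The markers Tgm2 and Ctsr differed in how widely they were shared there. Tgm2 had 633 CPM in rule wells of the TSC library against 5.53 CPM in other wells (ratio 114, 76.9 to 176), with a UMI in 8 of 14 rule wells. Ctsr had 205 UMIs in rule wells, but 99.5% of them in 1 well. Without the well that held most of each gene on either side, 7 of 9 higher genes were at least 2-fold higher, and Cds1 had a ratio of 1.79 in place of 3.70. Of the 10 lower genes 9 were measured and 6 were at least 2-fold lower in rule wells (median log2 ratio -1.19), among them Cyr61 (79.5 CPM in rule wells against 489 CPM in other wells), Gsto1 (214 against 1087 CPM) and Eomes (101 against 395 CPM). Efna3 was not, with 382 against 411 CPM. Without each gene's top wells 8 of 9 were at least 2-fold lower. Leaving out a top well takes more from 14 rule wells than from the other wells, and this tends to lower ratios by itself. The share of all genes at that setting was not counted, so nothing is read from the rise from 6 to 8.

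Over whole libraries the 15 genes had no common order. The 15 genes were chosen as high in selected wells, and the share of all genes above each whole library was not counted. Selected wells are therefore not set against whole libraries by a count of these genes. Cxcr4 had 26.4 CPM in all kept wells of the differentiated library, 3.89 CPM in the blastoid, 0.41 CPM in the pTSC and 0.37 CPM in the TSC library. Slc16a1 had 266, 501, 330 and 334 CPM in the same order, so the whole differentiated library was the lowest for a gene that its selected wells held at 864 CPM. Each library is 1 sample, and these differences were not tested.

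Bulk RNA sorted by CDX2 gave the one replicated comparison, and it reached few of these genes. Libraries held 157588 to 272030 counts in CDX2-high and 116659 to 138966 in CDX2-low TSCs. In edgeR's quasi-likelihood fit, with p-values adjusted after Benjamini and Hochberg over all genes, 93 of 3006 genes tested (3.09%) rose in CDX2-high libraries and 84 (2.79%) fell. In bulk, fewer cells of a kind and less RNA per cell cannot be told apart. Of the 15 higher genes Gm2a alone had enough counts to be tested. It had 69.8, 73.9 and 58.8 CPM in CDX2-high libraries against 103, 173 and 133 CPM in CDX2-low libraries. Every CDX2-high value lay below every CDX2-low value, and the log2 fold change was -1.04 (SE 0.34, adjusted p = 0.0663, edgeR), which does not pass 0.05. Tgm2 had 0, 0 and 1 counts in CDX2-high and 5, 4 and 3 counts in CDX2-low libraries. It was left out by the filter on low counts, and without that filter it fell in CDX2-high libraries (log2 fold change -3.80, adjusted p = 0.0314, edgeR), a fold that depends on the prior count.

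Of the 10 genes lower in selected wells 7 were tested in bulk, and 1, Cyr61, passed. It had 216, 93.3 and 107 CPM in CDX2-high libraries against 231, 209 and 393 CPM in CDX2-low libraries, and the groups overlapped. It fell by 1.10 on the log2 scale in CDX2-high libraries (SE 0.31, adjusted p = 0.0330, edgeR), and DESeq2 gave an adjusted p of 0.193. Eomes had 273, 167 and 180 CPM in CDX2-high against 51.4, 144 and 133 CPM in CDX2-low libraries. The groups did not overlap, and the log2 fold change of 0.83 (SE 0.32) had an adjusted p of 0.147 by edgeR. Gpx3, Mki67, Cenpf, Hunk and Gsto1 did not pass either, with log2 fold changes between -0.23 and 0.64. Without the filter Cenpf and Gsto1 passed as higher in CDX2-high libraries (adjusted p = 0.0476 and 0.0279, edgeR). Cenpf also passed without CDX2-low replicate 41 (adjusted p = 0.0236, edgeR) and Gsto1 without CDX2-low replicate 42 (adjusted p = 0.0107, edgeR). Without CDX2-high replicate 38, CDX2-high replicate 39 or CDX2-low replicate 42 Cyr61 no longer passed (adjusted p = 0.178, 0.186 and 0.198, edgeR), and with counts thinned to the smallest library it had 0.287. The labels do not say whether bulk replicates came from separate cultures, so these p-values measure the spread between libraries, which may be technical.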

How the data were processed

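CEL-Seq2 was used for 4 single-cell plates and 6 bulk libraries. The single-cell tables, as deposited by the authors, hold estimated counts of transcripts per gene and well, in whole numbers, and were used with no further rounding. The bulk table, as deposited, holds raw counts per gene. The submitters' processing notes name STAR 2.5.3a. Build, annotation and counting program were not given in the sources used here.

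The members, gene lists (34) and rules were chosen with earlier results of these data known. Kept wells had 2000 or more UMIs without mitochondrial genes, and 66 of 384 were dropped on the differentiated plate. UMIs were summed per group of wells and scaled to CPM without mitochondrial genes. Genes with at least 20 UMIs over kept wells, other than the 5 of the rule, were measured, and 2-fold was used as a rule of size. Ratios carry exact conditional binomial intervals (95%) for counting error only. Named genes were the 15 with the highest lower bound (UMI in at least 15% of selected wells, no well over 25% of UMIs) and the 10 with the lowest upper bound, plus Ctsr, Tgm2, Lonrf3 and list members. Wells were thinned to 2000 UMIs for counts of genes per well. Doublets were not called. An alternative drops the 5% of wells with most UMIs. All plates use the same well positions, so shared well numbers say nothing about shared cells.

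For bulk counts edgeR 4.0.16 was run under R 4.3.3 (filterByExpr, TMM, glmQLFit, glmQLFTest, no covariates), with DESeq2 1.42.0 as an alternative. The SE is the log2 fold change divided by the root of F. Scripts were tested on simulated data. Promoter identity came from global alignment with Biopython 1.88. Other work used scipy 1.17.1, numpy 2.4.6 and pandas 2.3.3 under Python 3.11.15.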

Additional observations from a re-analysis of the deposited data

How the results depend on the processing

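All 15 higher genes stayed at least 2-fold higher in selected wells under each of the 13 alternatives, and the 10 lower genes stayed at least 2-fold lower under all but 1. With a summed count of 1 or more (96 wells), 2 of the 10 did, and the measured genes at least 2-fold higher numbered 281 and those lower 293, against 514 and 1022. These 2 counts also moved with the minimum for a gene, to 806 and 1610 at 10 UMIs and to 307 and 533 at 50 UMIs. Thinning left 47 selected wells, and a summed count of 3 or more left 44. Sizes moved more than directions: 90 of 345 values of single named genes changed by more than their counting interval. The median ratio of the 15 genes was 15.4 against wells with Vnn1 under 5 and 5.17 at a sum of 1 or more, in place of 7.67. Ctsr ran between 7.47 (sum of 1 or more) and 167 (thinned) in place of 15.4, and Tgm2 between 3.86 and 14 (no Vnn1 limit) in place of 5.49. The G2 and M phase median was -0.37 at a sum of 1 or more, in place of -2.00. The causes were not tested. Results limited to wells with a Serpinb9e or Serpinb9g UMI, a choice made after seeing the data, kept 15 of 15 and 10 of 10.

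In bulk, genes that rose in CDX2-high libraries numbered 34 after thinning to the smallest library and 48 by DESeq2, and those that fell 27 and 27. Leaving out each library in turn gave 50 to 98 rising and 31 to 91 falling genes. Counts fell by more than 1.5 times without CDX2-high replicate 37 (54 rising, 41 falling), 38 (60 and 42) or 39 (50 and 31). No paired analysis was possible because the bulk replicate numbers run on between the groups and are shared by none.

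The depth of 1 plate limits what the 57 wells can show. A count of 0 there allows up to 3 counts in 545061 UMIs, and levels that rest on a few wells describe those wells.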
